A study of Mus musculus with 2 samples.

Results

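Bone morphogenetic protein (BMP) and transforming growth factor-β (TGF-β) signalling was described through 10 genes in single cells from the stria vascularis (SV), a vascular epithelium that lines the lateral wall of the cochlea. The genes are 1 ligand (Tgfb1), 3 receptors (Bmpr2, Acvrl1 and Tgfbr2), 1 co-receptor (Eng), 2 intracellular inhibitors (Smad6 and Smad7) and 3 target genes (Id1, Id2 and Id3). They were chosen by name, and all 10 were found by Ensembl identifier among the 27040 identifiers listed in both count matrices. Cells came from 2 mouse reporter lines aged 1 to 3 months, with 10 mice and 20 cochleae pooled into 1 library for each line. In Tie2-GFP mice, the promoter of Tek, an endothelial receptor gene, drives GFP, and in NG2-DsRed mice the promoter of Cspg4 drives DsRed, Cspg4 being a gene of pericytes and other mural cells. The SV was dissociated with collagenase IV and papain, and the methods state that cells were sorted by fluorescence where enrichment was needed. No treatment was applied to either line. Each line is 1 pooled library made in its own batch, so that no replicate error exists, no test was made, and the line, the batch and the software version cannot be told apart between libraries.

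Ligands of this family bring together a type II and a type I serine/threonine kinase receptor at the cell surface, and the type I receptor phosphorylates Smad proteins that enter the nucleus and change transcription. BMP signals run mainly through Smad1, Smad5 and Smad9 and raise the Id genes, and TGF-β signals run mainly through Smad2 and Smad3. In endothelial cells (ECs), circulating BMP9 and BMP10 signal through Acvrl1 (ALK1), Bmpr2 and the co-receptor endoglin, and inherited loss of Eng or Acvrl1 function causes hereditary haemorrhagic telangiectasia, a disease of malformed vessels. TGF-β from ECs is known to drive the maturation of pericytes and smooth muscle on developing vessels.

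The Tie2-GFP library held 633 barcodes with 5432289 unique molecular identifiers (UMIs, counted transcripts) and the NG2-DsRed library 201 barcodes with 1232599 UMIs, and 0 barcodes were shared by the libraries. Classes were set by genes outside the 10. Endothelial barcodes had a UMI of at least 4 of the 6 genes Pecam1, Cdh5, Cldn5, Flt1, Egfl7 and Ramp2. Mural barcodes had at least 3 of the 4 genes Pdgfrb, Rgs5, Vtn and Notch3 and at most 1 endothelial gene, and intermediate barcodes, named for the pigment cells of the SV, had all 3 of Dct, Tyr and Kcnj10. This gave 379 endothelial and 87 intermediate barcodes in the Tie2-GFP library and 60 endothelial, 97 mural and 25 intermediate barcodes in the NG2-DsRed library. The 4 mural barcodes of the Tie2-GFP library were too few to compare. Median depth was 7431 and 15955 UMIs in the 2 Tie2-GFP classes, and 9146, 3027 and 10383 UMIs in the 3 NG2-DsRed classes, in the order given.

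The class names were checked against markers that the rules did not use. Of 10 further endothelial genes, the median endothelial barcode held 9 (Tie2-GFP) and 8 (NG2-DsRed), the median mural barcode held 1, and the median intermediate barcode held 0 in both libraries. The median mural barcode held 7 of 10 further mural genes. The median intermediate barcode held 5 of 8 further pigment-cell genes in both libraries, but Tyrp1, a defining pigment-cell gene, was at 0 in both intermediate classes. The NG2-DsRed endothelial barcodes were mostly not endothelial alone, since 44 of 60 also held at least 2 of the 4 mural genes, against 32 of 379 in the Tie2-GFP library. In addition, 2 barcodes of the NG2-DsRed library met both the endothelial and the intermediate rule. The other 16 held at most 1 mural gene, which was Rgs5 with 150 UMIs in all, while Pdgfrb, Vtn and Notch3 were at 0, and 7 of the 10 further mural genes had 36 UMIs among them. No barcode was removed as a doublet, and the main ratios are also given against the 16 endothelial barcodes or the 23 other intermediate barcodes where UMIs allow.

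Levels below are CPM, the UMIs of a gene summed over a class and scaled to a class total of 1000000, with exact 95% Poisson intervals. Ratios between classes carry exact conditional intervals. Both cover counting error only, not differences between mice or between libraries. An order of levels over all classes sets unlike libraries side by side. A gene with at least 50 UMIs over both classes was called when its CPM differed at least 2-fold. A gene high in the class with more UMIs passes this minimum more easily. The shares given over all genes were taken under the same minimum.

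**Figure D1:**
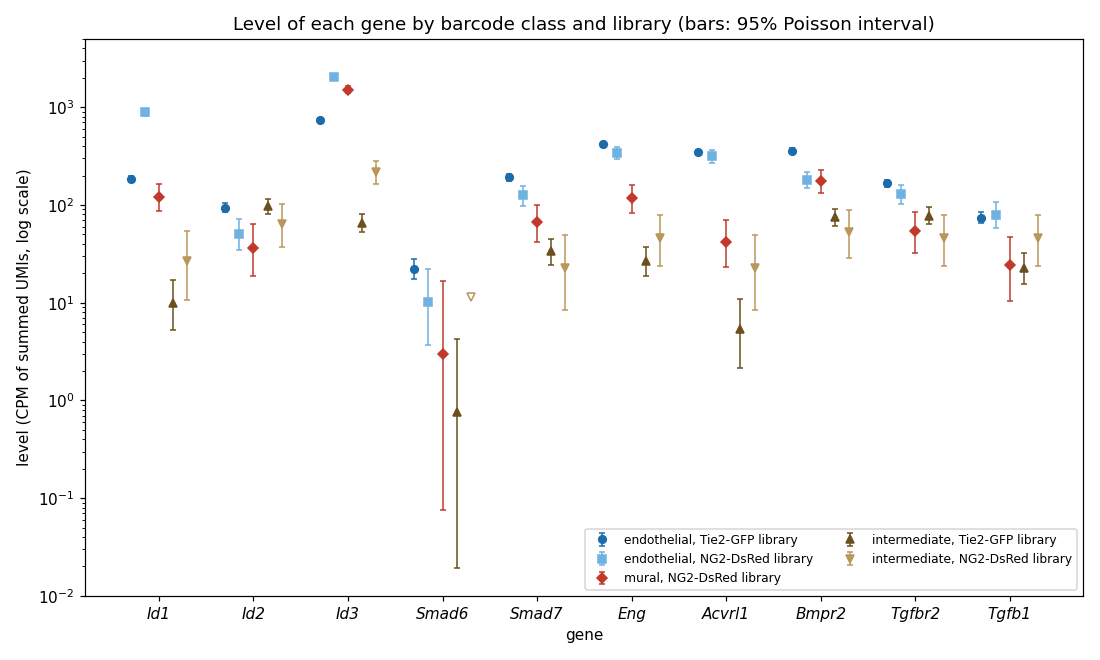
Level of the 10 genes in 5 barcode classes, as CPM of summed UMIs on a log axis with 95% Poisson intervals. The open symbol marks 0 UMIs and stands at the level that 3 UMIs would give (11.4 CPM). For Acvrl1 and Eng both endothelial classes stand above the other 3, for Id3 endothelial and mural barcodes stand far above intermediate ones, and the intervals of Id2 overlapped from each class to the next.

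In the Tie2-GFP library, 9 of the 10 genes were called higher in endothelial than in intermediate barcodes and 0 lower, where 29.2% of all 8391 genes with enough UMIs were called higher and 17.6% lower. The median log2 ratio was 3.01 over the 10 genes and 0.23 over all genes. Id2 was the exception. Endothelial barcodes also carried more dissociation-linked transcripts, with 23612 CPM summed over Fos, Jun, Junb, Egr1, Atf3, Hspa1a and Hspa1b against 2533 CPM in intermediate barcodes, and fewer mitochondrial UMIs, with a median of 1.82% against 9.31%. The part of these differences in the ratios was not tested.

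Acvrl1 (chromosome 15, 101128522 to 101145336, plus strand, GRCm38) encodes the endothelial type I receptor ALK1. Its level was 344 CPM (325 to 364) in Tie2-GFP endothelial barcodes, from 1182 UMIs, and 5.33 CPM (2.14 to 10.98) in intermediate barcodes, from 7 UMIs. NG2-DsRed levels were 313 CPM (270 to 362) in endothelial, 42.1 CPM (23.03 to 70.7) in mural and 22.7 CPM (8.33 to 49.4) in intermediate barcodes. Both endothelial classes thus lay above every other class, and their intervals overlapped each other. The endothelial level was 64.6-fold that of intermediate barcodes in the Tie2-GFP library (interval 31.3 to 161). Mural barcodes stood at 0.134-fold of the endothelial level in the NG2-DsRed library (0.0720 to 0.231). Against the 16 endothelial barcodes with at most 1 mural gene, the same ratio was 0.0928.

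Eng (chromosome 2, 32646595 to 32682669, plus strand) encodes endoglin, the co-receptor that presents BMP9 and BMP10 to ALK1. It stood at 416 CPM (395 to 438) in Tie2-GFP endothelial and 26.6 CPM (18.6 to 37.0) in intermediate barcodes. The NG2-DsRed levels were 342 CPM (297 to 393) in endothelial, 117 CPM (83.4 to 160) in mural and 45.4 CPM (23.5 to 79.3) in intermediate barcodes. The order was endothelial, mural, intermediate, and the intervals of the 2 intermediate classes overlapped. The endothelial excess over intermediate barcodes was 15.6-fold in the Tie2-GFP library (11.2 to 22.5), and mural barcodes stood at 0.343-fold of endothelial ones (0.237 to 0.485). Against the 16 endothelial barcodes with at most 1 mural gene, the latter ratio was 0.249. The annotation places Mir1954, Gm47291 and Gm26236 within Eng on the same strand, so a share of its UMIs could belong to these. Fpgs overlaps Eng on the other strand.

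Bmpr2 (chromosome 1, 59763400 to 59879014, plus strand) encodes the type II receptor that ALK1 pairs with for BMP ligands, and Gm38125 overlaps it on the same strand. Its levels were 358 CPM (339 to 379) and 75.3 CPM (61.2 to 91.7) in the endothelial and intermediate barcodes of the Tie2-GFP library. The NG2-DsRed library gave 181 CPM (149 to 219) in endothelial, 175 CPM (133 to 226) in mural and 53.0 CPM (29.0 to 88.9) in intermediate barcodes. Mural and endothelial barcodes of the NG2-DsRed library were not separated, with a ratio of 0.962 whose interval ran from 0.687 to 1.34. Bmpr2 in this respect contrasted with Acvrl1 and Eng, whose intervals lay wholly below 1. The endothelial level was 4.76-fold that of intermediate barcodes in the Tie2-GFP library (3.87 to 5.90).

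Tgfbr2 (chromosome 9, 116084293 to 116175360, minus strand) encodes the type II receptor that binds TGF-β itself. It stood at 167 CPM (154 to 182) in endothelial and 77.6 CPM (63.3 to 94.2) in intermediate barcodes of the Tie2-GFP library, a 2.16-fold difference (1.74 to 2.69) that lay close to the limit of 2-fold. Levels of the other library were 129 CPM (101 to 161) in endothelial, 54.2 CPM (32.1 to 85.6) in mural and 45.4 CPM (23.5 to 79.3) in intermediate barcodes. Intermediate and mural barcodes could not be ordered, since their intervals overlapped. Mural barcodes stood at 0.421-fold of endothelial ones (0.237 to 0.710). Against the 16 endothelial barcodes with at most 1 mural gene, 18 and 13 UMIs gave 0.477-fold (0.221 to 1.06), too few for a call and with an interval that held 1.

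Tgfb1 (chromosome 7, 25687002 to 25705077, plus strand) was the only ligand among the 10. Its levels were 74.3 CPM (65.4 to 83.9) in endothelial and 22.8 CPM (15.4 to 32.6) in intermediate barcodes of the Tie2-GFP library, a 3.25-fold difference (2.22 to 4.92). Endothelial barcodes of the NG2-DsRed library stood at 79.6 CPM (58.5 to 106), mural barcodes at 24.1 CPM (10.4 to 47.4) from 8 UMIs, and intermediate barcodes at 45.4 CPM (23.5 to 79.3). The endothelial levels of the libraries were alike within counting error. Mural barcodes were called lower than endothelial ones, at 0.302-fold (0.123 to 0.646), and stood at 0.230-fold of the 16 with at most 1 mural gene (0.0815 to 0.612), from too few UMIs for a call. Endothelial and intermediate barcodes of the NG2-DsRed library were not separated (1.75-fold, 0.916 to 3.63). Macrophage genes, whose cells also make Tgfb1, were present in these same classes with 56 UMIs over 5 of 6 genes in endothelial and 50 UMIs over 5 of 6 genes in intermediate barcodes, against 0 in mural barcodes, with Ptprc at 0 in all 3. All 50 UMIs of the intermediate class lay in the 2 barcodes that met both rules, so the same 50 are among the 56 of the endothelial class. These 2 barcodes held 1 of the 12 Tgfb1 UMIs of the intermediate class, and without them its Tgfb1 level was 44.9 CPM. The 16 endothelial barcodes with at most 1 mural gene held 0 UMIs of the macrophage genes and stood at 105 CPM (54.1 to 183) for Tgfb1.

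Smad6 (chromosome 9, 63953076 to 64022059, minus strand) and Smad7 (chromosome 18, 75367529 to 75395935, plus strand) encode the inhibitory Smads, which block signalling at the receptors. Smad6, which acts mainly on BMP signals, was sparse. It had 76 UMIs in Tie2-GFP endothelial barcodes (22.1 CPM, 17.4 to 27.7) and 1 UMI in intermediate barcodes, a ratio of 29.1 with an interval from 5.06 to 1164. The NG2-DsRed library held 6 in endothelial and 1 in mural barcodes, and 0 in 25 intermediate barcodes (interval from 0 to 13.96 CPM). Neighbouring classes could therefore not be ordered. Smad7, which inhibits both branches, stood at 191 CPM (177 to 206) in endothelial and 33.5 CPM (24.3 to 45.0) in intermediate barcodes of the Tie2-GFP library, a 5.70-fold difference (4.20 to 7.93). Its NG2-DsRed levels were 125 CPM (98.5 to 157) in endothelial, 66.2 CPM (41.5 to 100) in mural and 22.7 CPM (8.33 to 49.4) in intermediate barcodes. Mural barcodes stood at 0.528-fold of endothelial ones (0.312 to 0.859), short of the limit for a call, and at 0.759-fold of the 16 with at most 1 mural gene (0.345 to 1.79), from too few UMIs for a call.

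Id1 (chromosome 2, 152736251 to 152737410, plus strand), Id2 (chromosome 12, 25093799 to 25097140, minus strand) and Id3 (chromosome 4, 136143497 to 136145755, plus strand) encode inhibitors of DNA binding that hold back basic helix-loop-helix factors, and all 3 are direct targets of BMP-activated Smads. Id1 stood at 185 CPM (171 to 200) in endothelial and 9.89 CPM (5.27 to 16.9) in intermediate barcodes of the Tie2-GFP library, an 18.7-fold difference (10.8 to 35.2). Its NG2-DsRed levels were 883 CPM (809 to 962) in endothelial, 120 CPM (86.0 to 164) in mural and 26.5 CPM (10.7 to 54.6) in intermediate barcodes. In the order of levels, which crosses unlike libraries, the 2 intermediate classes overlapped. All other neighbours were apart beyond counting error. Mural barcodes stood at 0.136-fold of endothelial ones (0.0963 to 0.188) and at 0.1499-fold of the 16 with at most 1 mural gene (0.101 to 0.220).

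Id3 differed from Id1 in the mural barcodes. It stood at 747 CPM (718 to 776) in endothelial and 65.4 CPM (52.3 to 80.8) in intermediate barcodes of the Tie2-GFP library, an 11.4-fold difference (9.20 to 14.3). In the NG2-DsRed library it was 2033 CPM (1920 to 2152) in endothelial and 1513 CPM (1384 to 1652) in mural barcodes, so that mural barcodes kept 0.744-fold of the endothelial level (0.669 to 0.827). Intermediate barcodes stood at 216 CPM (163 to 279). Mural and endothelial barcodes of this library thus both lay above the endothelial barcodes of the Tie2-GFP library, a comparison between unlike libraries. None of the 5 intervals overlapped its neighbour. However, the 23 intermediate barcodes of the NG2-DsRed library that did not meet the endothelial rule stood at 61.2 CPM (34.3 to 101). That interval overlapped the one of Tie2-GFP intermediate barcodes. At barcode level, Id3 had a median of 16 UMIs in endothelial and 2 in mural barcodes of the NG2-DsRed library, with a maximum of 98 and 43. Id1 had a median of 5 and 0, with a maximum of 39 and 8. These counts are not scaled to depth, whose median was 9146 UMIs in the endothelial and 3027 UMIs in the mural barcodes.

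Id2 showed no endothelial excess. Its levels were 94.1 CPM (84.1 to 105) in endothelial and 96.6 CPM (80.6 to 115) in intermediate barcodes of the Tie2-GFP library, a ratio of 0.973 (0.790 to 1.20). It stood at 50.8 CPM (34.3 to 72.6) in endothelial, 36.1 CPM (18.7 to 63.1) in mural and 64.3 CPM (37.5 to 103) in intermediate barcodes, from 30, 12 and 17 UMIs, in the NG2-DsRed library. Each class overlapped its neighbours in the order of levels. The interval of the Tie2-GFP ratio lay wholly within 2-fold in both directions.

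Promoter sequence is shown for 3 genes with an endothelial excess that act at different steps, the co-receptor Eng, the receptor Tgfbr2 and the inhibitor Smad6. Of the 10 genes, 7 were matched in the RefSeq promoter table (GRCm38.p6). The windows of Id2, Id3 and Bmpr2 held bases of annotated exons (161, 250 and 250 of 250) and were left out. That of Tgfb1 held 0 such bases but is not printed, so the 3 genes are a choice. The 250 bases before the annotated start are printed 5′ to 3′ on the strand of the gene, at chr2:32646345-32646594 (plus) for Eng, chr9:116175364-116175613 (minus) for Tgfbr2 and chr9:64022060-64022309 (minus) for Smad6. Capitals mark matches on either strand to CAGAC, a Smad-binding element, GGCGCC, a GC-rich Smad site, or AGGAAG, an ETS-like element.
Eng: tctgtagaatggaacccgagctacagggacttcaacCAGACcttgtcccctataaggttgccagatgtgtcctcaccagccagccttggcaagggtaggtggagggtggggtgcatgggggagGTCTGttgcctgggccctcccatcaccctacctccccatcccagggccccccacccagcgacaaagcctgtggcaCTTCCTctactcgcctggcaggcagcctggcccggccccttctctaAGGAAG
Tgfbr2: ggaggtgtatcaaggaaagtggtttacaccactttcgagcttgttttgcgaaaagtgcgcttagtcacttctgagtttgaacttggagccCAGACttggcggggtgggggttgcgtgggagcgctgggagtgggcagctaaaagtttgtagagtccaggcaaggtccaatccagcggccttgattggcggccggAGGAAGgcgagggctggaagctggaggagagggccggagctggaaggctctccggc
Smad6: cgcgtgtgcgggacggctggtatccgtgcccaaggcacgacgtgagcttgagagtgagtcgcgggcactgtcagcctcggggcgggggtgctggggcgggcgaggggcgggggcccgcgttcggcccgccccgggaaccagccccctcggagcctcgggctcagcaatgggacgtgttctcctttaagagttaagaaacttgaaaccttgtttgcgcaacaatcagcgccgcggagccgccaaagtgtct
The window of Eng held 2 matches to CAGAC and 2 to AGGAAG, that of Tgfbr2 held 1 of each, and that of Smad6 held 0 of the motifs. None held GGCGCC, and no matches overlapped. Among 32851 windows of the same length, 42.2% held CAGAC, 29.5% AGGAAG and 9.59% GGCGCC. Matches of CAGAC and AGGAAG are therefore common, and matches describe letters rather than bound sites.

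In the NG2-DsRed library, 8 of the 10 genes had enough UMIs to compare mural with endothelial barcodes. Of these, 5 were called lower in mural barcodes (Id1, Acvrl1, Eng, Tgfb1 and Tgfbr2) and 0 higher, where 15.9% of 3384 genes were called lower and 13.2% higher. The median log2 ratio was -1.40 over the 8 genes and 0.00 over all genes. Id3, Smad7 and Bmpr2 stayed within 2-fold. Since most endothelial barcodes here held mural genes as well, the comparison was repeated with the 16 that held at most 1. Of 5 genes with enough UMIs, 3 were then called lower (Id1, Eng and Acvrl1; background 16.5%) and 0 higher (background 23.3%), while Tgfbr2 and Tgfb1 fell below the UMI minimum. Id3 and Bmpr2 again lay within 2-fold, at 0.757-fold and 0.952-fold.

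Endothelial barcodes with at least 2 mural genes were also set against those with at most 1. The former were deeper, with a median of 17451.5 against 7233 UMIs in the Tie2-GFP library and 10320.5 against 6202.5 UMIs in the other. For 10 genes of the Tie2-GFP library, 0 were called in either direction (background 2.66% higher and 4.61% lower), but Id3 was 1.51-fold higher (1.37 to 1.66) and Eng stood at 0.583-fold (0.486 to 0.694). Of 7 genes of the NG2-DsRed library, 0 were called (background 7.07% and 2.44%), with Eng at 0.661-fold (0.481 to 0.920), Acvrl1 at 0.616-fold (0.444 to 0.867), Id3 at 1.02-fold (0.884 to 1.19) and Id1 at 1.12-fold (0.895 to 1.42).

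**Figure D2:**
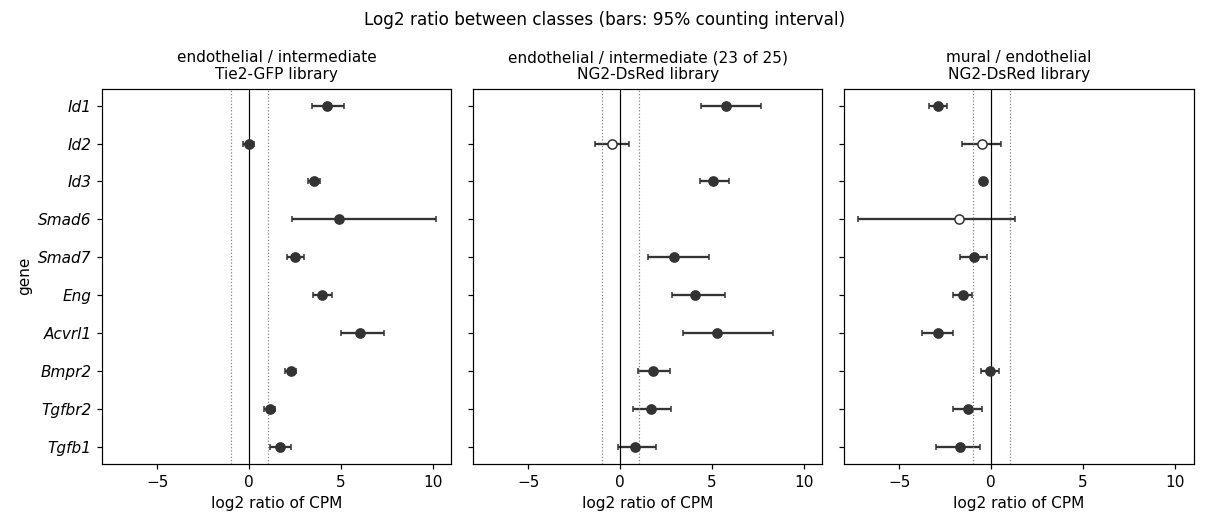
Log2 ratio of CPM between classes for the 10 genes, with 95% counting intervals. Dotted lines mark 2-fold, and open points had under 50 UMIs over both classes. The middle panel uses the 23 intermediate barcodes that did not meet the endothelial rule, and Smad6, at 0 UMIs there, has no point. In the right panel Acvrl1 (-2.90) and Id1 (-2.87) lie far to the left, while Bmpr2 (-0.06) lies at 0.

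The 2 barcodes that met both rules carried a large part of some intermediate levels in the NG2-DsRed library. Of the 8 further pigment-cell genes, these 2 barcodes held only Gpnmb, with 7 UMIs. Beside these were 109 UMIs of the 4 mural genes and 50 UMIs of the macrophage genes, so the further markers do not bear out the intermediate name for the 2 barcodes. They held 42 of the 57 Id3 UMIs of that class, 7 of 12 Eng UMIs and 4 of 6 Acvrl1 UMIs. Without them, the level of the 23 other intermediate barcodes was 61.2 CPM for Id3 instead of 216, 20.4 CPM for Eng instead of 45.4, and 8.16 CPM for Acvrl1 instead of 22.7. With all 25 barcodes, 7 of 8 genes were called higher in endothelial barcodes and 0 lower (27.9% and 15.5% of all genes), with a median log2 ratio of 2.69 against 0.26 over all genes. With 23 barcodes the counts were the same, at a background of 30.4% and 16.6%, and the median was 3.50 against 0.28. The log2 ratio of Id3 moved from 3.24 to 5.05, that of Acvrl1 from 3.79 to 5.26, that of Eng from 2.91 to 4.07 and that of Id1 from 5.06 to 5.76. Tgfb1 was the gene within 2-fold in both. Dissociation-linked genes summed to 26222 CPM in endothelial and 19525 CPM in mural barcodes against 6085 CPM in the 25 and 5291 CPM in the 23 intermediate barcodes, and median mitochondrial UMIs were 2.72%, 2.18% and 5.38% in the 3 classes. Their part in these ratios and in those of mural over intermediate barcodes was not tested.

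Mural barcodes could be compared with intermediate ones for 3 genes, and Id3, Eng and Bmpr2 were all called higher in mural barcodes, where 24.6% of 2215 genes were called higher and 19.1% lower. Their log2 ratios were 2.81, 1.37 and 1.72. Against the 23 intermediate barcodes, Id3 rose to 4.63, Bmpr2 stood at 1.72, and Eng, at 2.52, had too few UMIs for a call. With 2 genes left, both were called higher and 0 lower (background 26% and 20.1%).

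A barcode with more UMIs has a greater chance of holding any gene. Shares of barcodes were therefore compared after thinning to 3364 UMIs (Tie2-GFP) or 1957 UMIs (NG2-DsRed). Shallower barcodes were left out. These were 39 endothelial and 6 intermediate barcodes in the Tie2-GFP library. In the NG2-DsRed library they were 0 endothelial, 17 mural and 1 intermediate barcodes. Acvrl1 had a UMI in 66.8% of 340 thinned endothelial barcodes (61.5 to 71.8, Clopper-Pearson) and in 0 of 81 intermediate barcodes (0 to 4.45). Before thinning, the shares were 87.6% and 8.05%. Eng was found in 73.2% (68.2 to 77.9) and 11.1% (5.21 to 20.0) after thinning, and in 88.9% and 28.7% before. Id3 was found in 70.0% and 14.8% after and in 82.6% and 32.2% before thinning. Id2 was found in 24.7% of endothelial and 25.9% of intermediate barcodes at equal depth, whereas the share without thinning was lower in endothelial (37.5%) than in intermediate barcodes (50.6%), which were more than 2-fold deeper.

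In the NG2-DsRed library at equal depth, Id3 had a UMI in 91.7% of 60 endothelial, 72.5% of 80 mural and 16.7% of 24 intermediate barcodes. Id1 was found in 68.3%, 15.0% and 8.33%, and Eng in 45.0%, 15.0% and 8.33%. The intervals of mural and intermediate barcodes overlapped for Id1 (7.998 to 24.7 and 1.03 to 27.0), and the shares expected over all draws were 15.2% and 5.41%. By summed UMIs, 40 against 7, the Id1 level of mural barcodes was 4.54-fold that of intermediate ones (2.01 to 12.02), below the minimum for a call. These intermediate shares and levels include the 2 barcodes that met both rules. In the 23 others Id1 stood at 16.3 CPM (4.45 to 41.8), from 4 UMIs. Acvrl1 depended on the draw. It was found in 33.3% of endothelial barcodes in 1 random draw and 56.7% in another, and the share expected over all draws was 46.0%, against 6.33% in mural and 4.90% in intermediate barcodes.

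**Figure D3:**
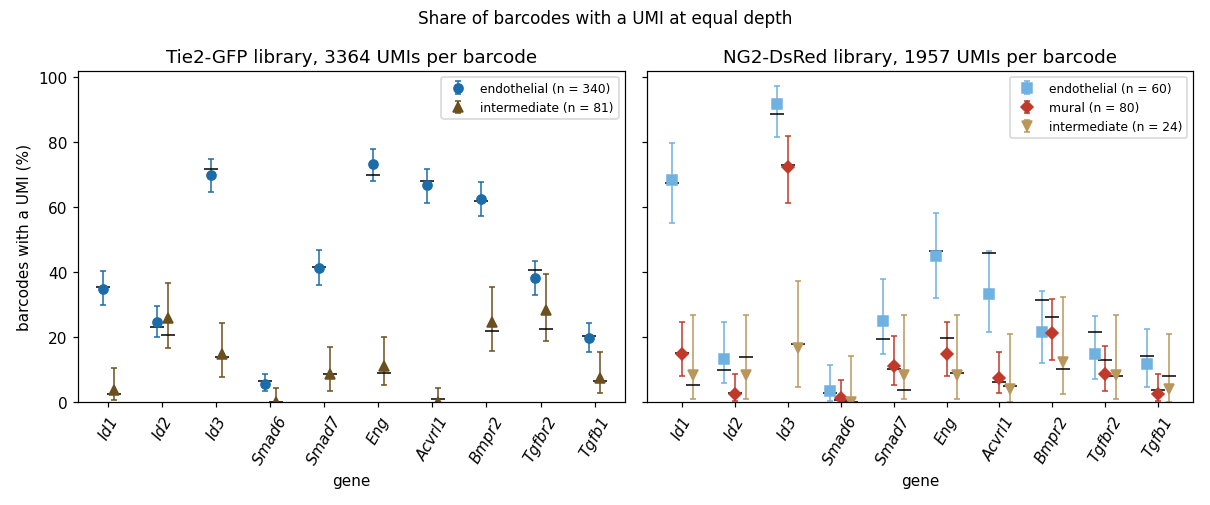
Share of barcodes with at least 1 UMI of each gene after thinning the barcodes of a library to the same number of UMIs. Barcodes with fewer UMIs were left out. Points are 1 random draw with 95% Clopper-Pearson intervals, and black dashes are the share expected over all draws. For Id2 the endothelial and intermediate points of the Tie2-GFP library stand side by side (24.7% and 25.9%), and for Acvrl1 they stand at 66.8% and 0%.

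Presence of the 3 receptor genes in 1 barcode was counted as well. Eng, Acvrl1 and Bmpr2 were all present in 255 of 379 Tie2-GFP endothelial barcodes (67.3%, 62.3 to 72.0), in 3 of 87 intermediate barcodes and, in the NG2-DsRed library, in 40 of 60 endothelial, 2 of 97 mural and 0 of 25 intermediate barcodes. After thinning to 3364 UMIs, the trio was present in 106 of 340 endothelial barcodes of the Tie2-GFP library (31.2%) and 0 of 81 intermediate barcodes. At 1957 UMIs, it was present in 2 of 60 endothelial (3.33%, 0.406 to 11.5), 0 of 80 mural and 0 of 24 intermediate barcodes of the NG2-DsRed library. The depths differ, so these shares do not compare the libraries. In this 1 draw, NG2-DsRed endothelial shares were 33.3% for Acvrl1, 21.7% for Bmpr2 and 45.0% for Eng. Over all draws, 46.0%, 31.5% and 46.7% were expected. In the thinned Tie2-GFP endothelial barcodes the UMIs of Eng had a Spearman rho of 0.0028 with those of Acvrl1 and -0.036 with those of Bmpr2. Only 3 of the 379 barcodes had none of the 3 genes. Id1 and Id3 were found together in 189 of 379 Tie2-GFP endothelial barcodes (49.9%), in 55 of 60 NG2-DsRed endothelial barcodes (91.7%) and in 20 of 97 mural barcodes (20.6%). After thinning, the pair was found in 101 of 340 (29.7%), 40 of 60 (66.7%) and 11 of 80 (13.75%). Thinned depth again differs between the libraries.

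Endothelial levels of some of the 10 genes differed between the libraries, and Id1 and Id3 ran opposite to Id2 and Bmpr2. Over genes listed in both files, endothelial barcodes of the NG2-DsRed library held 4.77-fold more Id1 (4.24 to 5.36) and 2.71-fold more Id3 (2.53 to 2.91) than those of the Tie2-GFP library, and 0.458-fold as much Smad6 (0.163 to 1.04, from 6 UMIs). These were 2 genes called higher and 1 lower of 10, where 9.87% of 7582 genes were called higher and 11.3% lower. Counts this small do not set the 10 genes apart from all genes. Bmpr2 stood at 0.504-fold (0.410 to 0.615) and Id2 at 0.539-fold (0.358 to 0.784), while Acvrl1 (0.908-fold, 0.773 to 1.06) and Tgfb1 (1.07-fold, 0.766 to 1.46) were not separated. Among endothelial barcodes with at most 1 mural gene, the ratios were 4.17 for Id1 and 2.88 for Id3. There Bmpr2 (0.486-fold) and Smad7 (0.428-fold, from 10 UMIs) were called lower and Smad6 was not, at a background of 10.5% higher and 20% lower. The mouse line, batch, sort and software version differ together between the libraries and cannot be told apart. The summed dissociation-linked genes stood at 26222 CPM in NG2-DsRed against 23612 CPM in Tie2-GFP endothelial barcodes.

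In intermediate barcodes, Id3 was the 1 gene of 5 with enough UMIs that was called higher in the NG2-DsRed library, at 3.29-fold (2.31 to 4.65), where 9.32% of genes were called higher and 8.46% lower. This rested on the 2 barcodes that also met the endothelial rule. Without them the log2 ratio of Id3 was -0.10 (-0.997 to 0.70), and 0 of 4 genes were called in either direction (background 9.05% each).

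Endothelial barcodes were also split by arterial and venous genes. Of the Tie2-GFP endothelial barcodes, 108 held at least 2 of 6 arterial genes and more of these than of 6 venous genes. By the same rule, 92 leaned to the venous genes. The arterial genes were Gja4, Gja5, Bmx, Sema3g, Stmn2 and Mgp, and the venous genes Nr2f2, Slc38a5, Vcam1, Vwf, Ackr1 and Lrg1. Mgp stood at 3827 CPM in mural and 1090 CPM in endothelial barcodes of the NG2-DsRed library. A barcode with mural transcripts could thus meet the arterial rule more easily. Smad6 was the 1 gene of 10 called higher in the arterial-leaning barcodes, at 30.8 CPM against 13.7 CPM (2.25-fold, 1.17 to 4.605, from 37 and 13 UMIs), and 0 were called lower, where 2.88% of 5665 genes were called higher and 1.91% lower. Eng ran the other way, at 342 CPM against 520 CPM (0.657-fold, 0.575 to 0.750). Id1 stood at 222 against 156 CPM (1.42-fold, 1.16 to 1.75) and Acvrl1 at 406 against 319 CPM (1.27-fold, 1.10 to 1.47). The other 6 genes had intervals that held 1, from Smad7 at 0.857-fold to Tgfb1 at 1.19-fold. The arterial-leaning barcodes also held more UMIs of other cell types, with 1854 against 145 CPM summed over the 4 mural genes, 573 against 76.9 CPM over the 10 further mural genes, 54.9 against 3.16 CPM over the contractile genes and 1381 against 10.5 CPM over the haemoglobin genes. Their part in the ratios was not tested.

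Of the 97 mural barcodes, 40 held at least 2 of the 3 contractile genes Acta2, Tagln and Myh11, and 57 did not. Median depth was 3749 UMIs in the contractile and 2528 UMIs in the other mural barcodes. A deeper barcode meets such a rule more easily, so the split is partly one of depth. Only Id3 and Bmpr2 had enough UMIs for a call, and 0 were called in either direction, where 8.59% of 1117 genes were called higher and 7.7% lower. Id3 was 1.48-fold higher in contractile barcodes (1787 against 1205 CPM, interval 1.23 to 1.79), and Bmpr2 stood at 0.541-fold (125 against 231 CPM, interval 0.303 to 0.945). Id1 had 30 UMIs in contractile and 10 in other mural barcodes, and Tgfbr2 had 4 and 14. All 12 mural UMIs of Id2 lay in contractile barcodes, but in 5 barcodes of which 1 held 6. The dissociation-linked genes summed to 24031 CPM in contractile against 14433 CPM in other mural barcodes, and their part was not tested.

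Across endothelial barcodes, few pairs of the 10 genes had a rho above 0.2, but sparse counts weaken any rho. Among the 340 Tie2-GFP endothelial barcodes thinned to equal depth, 1 of 45 pairs had a Spearman rho above 0.2, Id1 with Id3 at 0.27, and the median over pairs was 0.0047. The NG2-DsRed endothelial barcodes had 4 such pairs and a median of 0.022. The pairs were Id2 with Smad6 (0.47), Smad6 with Eng (0.31), Id1 with Id2 (0.26) and Smad6 with Tgfb1 (0.22). Smad6 had a UMI in only 2 of these 60 thinned barcodes. Within each set the barcodes share 1 library and most counts are 0 or 1. The values are thus a description, and a low rho does not show that genes vary apart. The genes most like Id1 were Hspa1b (0.27), Id3 (0.27), Hspa1a (0.25), Cldn5 (0.22) and Ccn1 (0.21) among 1825 genes present in at least 25% of the thinned barcodes, and in 60 NG2-DsRed endothelial barcodes these were 0.14, 0.10, 0.03, -0.07 and 0.13. Hspa1a and Hspa1b encode near-identical heat-shock proteins and belong to the dissociation-linked list, with which Id1 had a rho of 0.17. For Id2 the likest genes were Egr1 (0.19), Nrd1 (0.17), Sap18 (0.17), Nr4a1 (0.17) and Btg2 (0.17), and in the NG2-DsRed library they lay between -0.12 and 0.05.

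The other genes of the pathway were read from a list of 74. In the Tie2-GFP library 40 had enough UMIs, of which 24 were higher in endothelial than in intermediate barcodes, 6 lower and 10 within 2-fold, against the background of 29.2% and 17.6% given above. Their median log2 ratio was 1.67, against 0.23 over all genes. With 3434218 endothelial and 1314067 intermediate UMIs, the minimum favours genes high in endothelial barcodes. Nrros, for instance, passed it with 56 and 0 UMIs. All 7 intracellular inhibitors were higher in endothelial barcodes, among them Tgif1, a corepressor of Smad2 and Smad3 targets (133 against 5.33 CPM, log2 ratio 4.65, 3.59 to 5.97). Of the 9 targets with enough UMIs, 7 were higher, 1 (Id4) lower and 1 (Cdkn1c) within 2-fold.

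**Figure D4:**
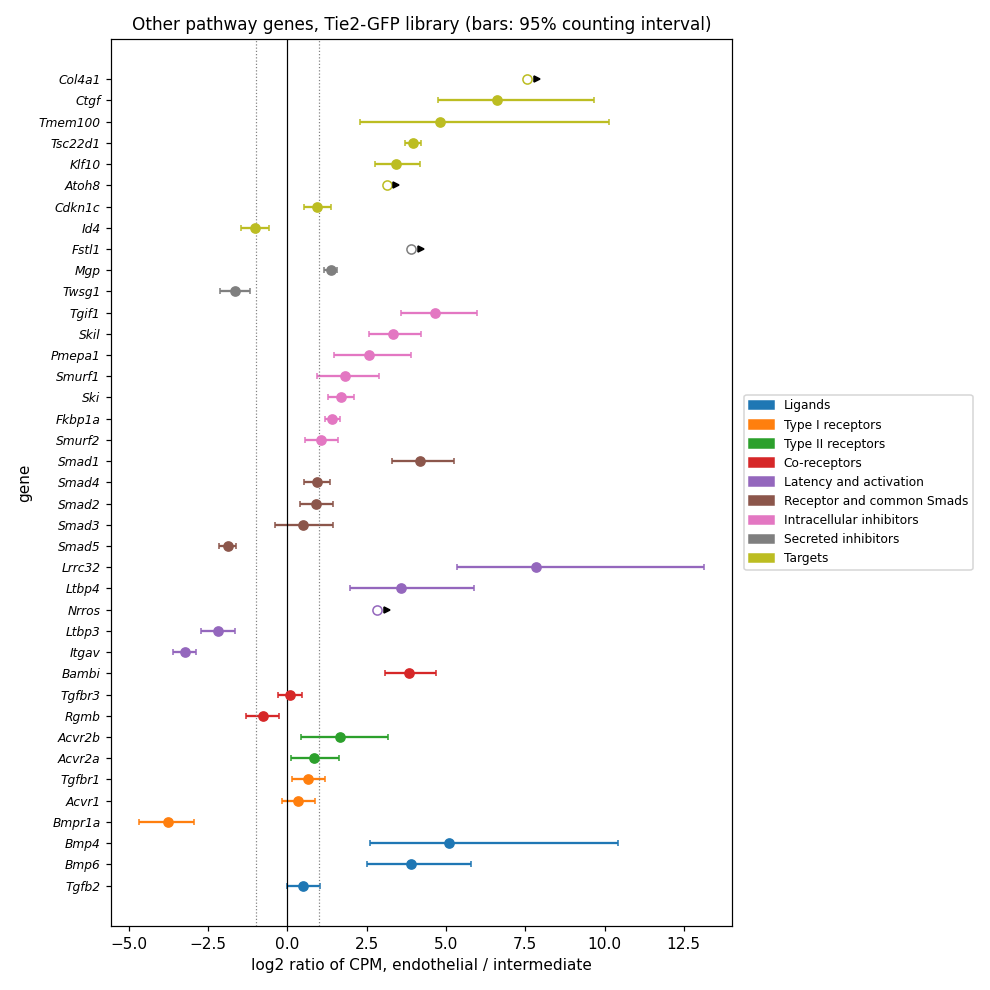
Log2 ratio of CPM, endothelial over intermediate barcodes of the Tie2-GFP library, for the other pathway genes with at least 50 UMIs except 1, coloured by role, with 95% counting intervals. Open points with an arrow are genes with 0 UMIs in intermediate barcodes, placed at the ratio that 3 UMIs would give. All 7 intracellular inhibitors lie right of 1, and Bmpr1a and Itgav lie furthest left.

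Among the named target genes, Col4a1, the basement membrane collagen, had 1480 UMIs in Tie2-GFP endothelial and 0 in intermediate barcodes. It was 189-fold higher in endothelial barcodes when 3 UMIs are assumed over the intermediate class. The exact interval of its log2 ratio began at 7.26. Atoh8, a basic helix-loop-helix factor, was 8.80-fold higher in the same way, and its interval began at a log2 ratio of 2.80. Ctgf, a matricellular protein gene, had a log2 ratio of 6.61 (4.75 to 9.66, 2 intermediate UMIs), and Tmem100, a membrane protein gene downstream of ALK1, one of 4.82 (2.30 to 10.15, 1 intermediate UMI). Col4a1 and Ctgf are targets of other pathways too.

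Among genes that hold latent TGF-β, Lrrc32, which encodes the surface anchor GARP, had 594 endothelial UMIs and 1 intermediate UMI (log2 ratio 7.83, 5.34 to 13.13). Nrros, an anchor known from microglia, had 56 and 0 UMIs. It was 7.14-fold higher in endothelial barcodes with 3 intermediate UMIs assumed, and its interval began at a log2 ratio of 2.49. Fstl1, a secreted protein that binds BMPs, had 117 and 0 UMIs and was 14.9-fold higher in the same way (interval from a log2 ratio of 3.58). This endothelial class includes 32 barcodes with at least 2 mural genes, whose part in the Fstl1 level was not tested. In the NG2-DsRed library Fstl1 was higher in mural than in endothelial barcodes (log2 ratio 1.63, 1.14 to 2.14). Bmp4, a BMP ligand, had 90 endothelial UMIs and 1 intermediate UMI (log2 ratio 5.11, 2.59 to 10.43).

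Between mural and endothelial barcodes of the NG2-DsRed library, 21 of the 74 genes had enough UMIs, and 5 were higher, 5 lower and 11 within 2-fold, against a background of 13.2% and 15.9%. The median log2 ratio was -0.15. Bmpr1a, the type I receptor ALK3, was higher in mural barcodes (132 against 25.4 CPM, log2 ratio 2.38, 1.51 to 3.33), opposite to the type I receptor Acvrl1. Mgp, a matrix protein that binds BMPs, stood at 3827 against 1090 CPM (log2 ratio 1.81, 1.67 to 1.95), and Fstl1 (1.63), Tgfbr3 (1.44), which encodes the co-receptor betaglycan, and Cdkn1c (1.29), a cell-cycle inhibitor gene, were higher as well. Lower in mural barcodes were Bambi, a decoy receptor (45.1 against 286 CPM, log2 ratio -2.67, -3.53 to -1.90), Klf10 (-1.76) and Tsc22d1 (-1.54), both TGF-β target genes, Smad1 (-1.57), a BMP-activated Smad, and Smurf2 (-1.07), a ubiquitin ligase of receptors and Smads. Against the 16 endothelial barcodes with at most 1 mural gene, 9 of the 74 genes had enough UMIs, and 3 were higher (Mgp at a log2 ratio of 4.25, Fstl1 at 4.05 and Cdkn1c at 1.32), 2 lower (Tsc22d1 at -1.96 and Fkbp1a at -1.01) and 4 within 2-fold, against a background of 23.3% and 16.5%. Bmpr1a, Tgfbr3, Bambi, Klf10, Smad1 and Smurf2 were then below the UMI minimum, with Bmpr1a at 44 mural and 0 endothelial UMIs. Smurf2, from 11 and 3 UMIs, changed sign (log2 ratio 0.34, -1.58 to 2.82).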

How the data were processed

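UMI counts of every gene in every barcode were deposited by the authors as unnormalized matrices, with lists of barcodes and features. The submitters' processing notes name bcl2fastq 2.20.0.422 and mm10, and per the file headers the Tie2-GFP matrix came from Cell Ranger 7.0.0 and the NG2-DsRed one from software version 3.0.0. Whether intronic reads were counted is not given in the sources used here. Genes were joined by Ensembl ID to GRCm38 coordinates (GENCODE M21). Of all deposited columns, 0 belonged to other samples.

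All deposited barcodes were classed, because the limits of the study, 5% mitochondrial UMIs among them, would leave 6 of 87 and 9 of 25 intermediate barcodes. UMIs were summed per class and divided by the class total. Intervals were exact Poisson for levels, Clopper-Pearson for shares and conditional binomial for ratios, at 95%. The precision follows depth, which ran from 264240 UMIs (NG2-DsRed intermediate) to 3434218 UMIs (Tie2-GFP endothelial). Thinning used the 10th percentile of UMIs over the classed barcodes of a library, and the expected share over draws was added after seeing the data. Named genes were all 10, up to 10 pathway genes with the largest absolute log2 ratio in each of 2 comparisons and the 5 genes most like Id1 and Id2, and 1 of the pathway genes is not reported here. Bmp6 and the other genes of the closing section, Id4, Fkbp1a and the figure's further genes were picked after their values were seen. The 10 genes, the classes and the lists were chosen with earlier results of these data known. Alternatives were the total, the class genes, the study's limits, thinning, equal weights, the barcodes of mixed class, the fold, the UMI minimum and a second draw, and barcodes with over 1% haemoglobin UMIs were left out in an alternative added after the values were seen, like the comparison of pathway genes with 16 endothelial barcodes. Python 3.11.15, numpy 2.4.6, scipy 1.17.1, pandas 2.3.3 and matplotlib 3.10.9 were used, and the steps were tested on simulated data.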

Additional observations from a re-analysis of the deposited data

Results flagged for a closer look

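Summed over the 10 genes, barcodes outside the compared classes held more than 3 UMIs would give, although single genes were at 0. The 163 unclassified barcodes of the Tie2-GFP library held 315 UMIs of the 10 genes, or 469 CPM (419 to 524), at a median depth of 1533 UMIs and a median of 75.6% mitochondrial UMIs. The 21 unclassified barcodes of the NG2-DsRed library held 101 UMIs, or 1549.7 CPM (1262 to 1883), at a median depth of 1220 UMIs. Of these, 70 were Id3, 52 of them in 1 barcode, and Smad6 and Smad7 were at 0. The 4 mural barcodes of the Tie2-GFP library held 21 UMIs, or 1699.7 CPM (1052 to 2598), with Id2, Smad6, Acvrl1, Tgfbr2 and Tgfb1 at 0. These sums are values only and enter no comparison.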

How the results depend on the processing

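Over the planned and added alternatives, 100 of 104 counts of called genes stayed within 1.5 times the value given, where a count that stayed at 0 was taken as unchanged. Except where the UMI minimum itself was changed, these counts kept the genes with enough UMIs in the main comparison. Tgfbr2 and Tgfb1 thus still counted as lower against the 16 endothelial barcodes, where they had too few UMIs for a call. In addition, 253 of 286 log2 ratios stayed within their intervals, and all 236 log2 ratios of called genes kept their sign. These figures include outcomes that could not change. In each comparison the count in 1 direction started from 0. In the Tie2-GFP library 0 barcodes met 2 class rules, and 0 classed NG2-DsRed barcodes had over 1% haemoglobin UMIs. The limit on mural genes in endothelial barcodes left mural against intermediate barcodes as they were. For 4 further ratios a class had 0 UMIs and no value was given, among them Smad6 under the study's limits, where the 6 remaining intermediate barcodes of the Tie2-GFP library held 0. Under those limits 1 gene (Id2) was lower in endothelial than in intermediate barcodes of that library. At a fold of 4, 2 genes were lower in mural than in endothelial barcodes of the NG2-DsRed library and 1 was higher in mural than in intermediate barcodes, and with at least 20 UMIs the latter count was 5. Of 100 shares under a second draw or the expected share, 98 lay within the first draw's interval. No paired analysis was possible because each line is 1 library with no replicate number, and for the same reason no library could be left out. Depth limits Smad6 in every class and Tgfb1, Acvrl1 and Tgfbr2 in mural barcodes.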

Other observations

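Ligands other than Tgfb1 were counted in each class. Bmp6, a BMP ligand known from liver endothelium, had 155 UMIs in Tie2-GFP endothelial barcodes (45.1 CPM), 4 in intermediate barcodes and 0 in the whole NG2-DsRed library. Set against 3 UMIs assumed over the NG2-DsRed endothelial class, it was 8.88-fold higher in Tie2-GFP endothelial barcodes. Of 3526 genes with as many UMIs in the Tie2-GFP endothelial class, 5 were at 0 in the whole NG2-DsRed library. Bmp7 had 45 UMIs in Tie2-GFP and 12 in NG2-DsRed intermediate barcodes, against 1 and 0 in the endothelial classes. Bmp2 (27 UMIs), Bmp5 (19), Gdf11 (20) and Tgfb3 (20) were counted in NG2-DsRed mural barcodes, at 81.2, 57.2, 60.2 and 60.2 CPM, and with 14, 3, 11 and 12 UMIs in the endothelial barcodes of that library. Bmp2 also had 26 UMIs in Tie2-GFP endothelial barcodes. Tgfb2 was found in every class, at 45.1 and 32.0 CPM in the endothelial and intermediate barcodes of the Tie2-GFP library and at 77.95, 60.2 and 94.6 CPM in the endothelial, mural and intermediate barcodes of the NG2-DsRed library. Gdf2 and Bmp10, which encode the ALK1 ligands BMP9 and BMP10, were at 0 in all 5 classes.

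The BMP-activated Smads Smad1 and Smad5 ran in opposite directions in the Tie2-GFP library. Smad1 stood at 138 CPM in Tie2-GFP endothelial and 7.61 CPM in intermediate barcodes, whereas Smad5 stood at 53.9 and 199 CPM. In the NG2-DsRed library Smad1 stood at 125, 42.1 and 18.9 CPM in endothelial, mural and intermediate barcodes, and Smad5 at 44.1, 39.1 and 272 CPM. Bmpr1a, which was low in endothelial barcodes (4.37 CPM in the Tie2-GFP library, from 15 UMIs), stood at 59.4 CPM in the intermediate barcodes of that library. The other 2 type I receptor genes with enough UMIs there, Tgfbr1 and Acvr1, lay within 2-fold, at log2 ratios of 0.66 and 0.34. In 2 endothelial barcodes of the Tie2-GFP library, haemoglobin genes took 60.7% and 5.05% of the UMIs.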
